A study of Mus musculus with 3 samples.

Results

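Sites at protein-coding genes where a CEBPG peak lay near an ATF4 peak were examined in embryonic fibroblasts of the mouse after amino acid withdrawal. A CEBPG peak was included when its centre lay within 250 bp of the centre of an ATF4 peak and inside, or within 1 kb of, the span of a RefSeq protein-coding gene. This gave 199 peaks of 25419 in the CEBPG list (0.783%, 95% Wilson interval 0.682 to 0.899%). They were thus chosen by the presence of a call in both lists and by distance, and are called shared gene sites here. The cells were wild-type C57BL/6 fibroblasts isolated at E13.5 and passaged a few times, plated for 24 hours and then moved to medium lacking amino acids (AAD, amino acid deprivation) for 3 hours. Chromatin immunoprecipitation with sequencing (ChIP-seq) used a CEBPG C-terminal antiserum and an ATF4 antibody (Santa Cruz; C-20), with 1 library for each, and both libraries came from deprived cells. A library made with a GFP antibody was not analysed here, and no cells in full medium or lacking either factor enter any comparison below. With 1 library per antibody there was no test between cultures, so all values are descriptions of these 2 peak lists, and the intervals cover counting error only. The lists hold no expression values, so the fibroblast label could not be set against marker levels.

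ATF4 and CEBPG are basic leucine zipper (bZIP) proteins, which bind DNA as dimers. When amino acids are scarce, phosphorylation of the initiation factor eIF2α slows general translation and favours translation of the Atf4 mRNA, and ATF4 then activates genes of amino acid synthesis, transport and tRNA charging. CEBPG belongs to the C/EBP family and pairs with ATF4, and C/EBP-ATF pairs recognise a composite DNA element made of a C/EBP part and an ATF part (C/EBP-ATF response element, CARE), spelled TGATGNAA here, where N is any base.

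The composite element lay close to the CEBPG peak centre in many of the promoters that held a shared gene site. RefSeq promoter windows of GRCm38.p6, the build mm10, run from 250 bases before a gene start to 50 bases after it, and 19 of them held the centre of a shared gene site of their own gene. A match to TGATGNAA on either strand was present in 12 of these 19 promoters (63.2%, 95% Wilson interval 41.0 to 80.9%). It was present in 48 of 188 promoters (25.5%, 19.8 to 32.2%) that held the centre of a CEBPG peak without ATF4 and in 766 of all 21263 promoter windows of protein-coding genes (3.60%). The match nearest to the CEBPG peak centre was a median of 20.5 bp from it over the 12 promoters, with a range of 0.500 to 76.5 bp. In 11 of the 12 it was within 50 bp of the CEBPG centre, and in 9 of the 12 a match was within 50 bp of the ATF4 centre. For CEBPG peaks without ATF4 the nearest match was a median of 33.5 bp from the centre and within 50 bp for 37 of 48. A match near the CEBPG centre was thus common in both sets. The window of 300 bases bounds these distances in advance, and no distance for random positions was computed. The bases before the start are printed for the 6 of these 19 promoters with the highest ATF4 scores, because 4 of them carry the element in different settings and the other 2 do not carry it. Capitals mark matches to the element on either strand, and each sequence reads 5′ to 3′ in the direction of its gene. The stretches are chr2:119350992-119351241 (plus strand) for Chac1, chr2:106974398-106974647 (minus) for Arl14ep, chr14:55540016-55540265 (plus) for Pck2, chr6:7693210-7693459 (minus) for Asns, chr19:15925060-15925309 (minus) for Psat1 and chr3:50443614-50443863 (minus) for Slc7a11.
Chac1: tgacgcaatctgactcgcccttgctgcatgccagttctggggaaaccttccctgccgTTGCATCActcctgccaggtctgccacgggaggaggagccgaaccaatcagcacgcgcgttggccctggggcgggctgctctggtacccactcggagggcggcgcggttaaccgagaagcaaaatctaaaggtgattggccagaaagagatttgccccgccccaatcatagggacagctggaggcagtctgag
Arl14ep: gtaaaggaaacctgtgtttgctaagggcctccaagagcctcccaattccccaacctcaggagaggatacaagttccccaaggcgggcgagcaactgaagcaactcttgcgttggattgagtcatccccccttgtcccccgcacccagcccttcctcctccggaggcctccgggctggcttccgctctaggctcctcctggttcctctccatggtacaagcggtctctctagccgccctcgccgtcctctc
Pck2: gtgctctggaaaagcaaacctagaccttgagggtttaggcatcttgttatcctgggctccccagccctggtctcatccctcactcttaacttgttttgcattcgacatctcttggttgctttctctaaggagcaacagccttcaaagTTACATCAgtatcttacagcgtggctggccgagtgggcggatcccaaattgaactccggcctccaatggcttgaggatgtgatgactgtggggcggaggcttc
Asns: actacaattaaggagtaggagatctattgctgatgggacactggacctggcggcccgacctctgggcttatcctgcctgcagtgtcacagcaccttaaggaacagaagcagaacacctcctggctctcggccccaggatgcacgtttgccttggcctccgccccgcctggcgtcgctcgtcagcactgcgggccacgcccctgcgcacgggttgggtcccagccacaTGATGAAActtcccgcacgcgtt
Psat1: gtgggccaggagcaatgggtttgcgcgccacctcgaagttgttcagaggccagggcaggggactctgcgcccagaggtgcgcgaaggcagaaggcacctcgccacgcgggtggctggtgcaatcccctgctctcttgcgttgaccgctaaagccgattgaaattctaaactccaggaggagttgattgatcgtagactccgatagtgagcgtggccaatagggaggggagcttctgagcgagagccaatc
Slc7a11: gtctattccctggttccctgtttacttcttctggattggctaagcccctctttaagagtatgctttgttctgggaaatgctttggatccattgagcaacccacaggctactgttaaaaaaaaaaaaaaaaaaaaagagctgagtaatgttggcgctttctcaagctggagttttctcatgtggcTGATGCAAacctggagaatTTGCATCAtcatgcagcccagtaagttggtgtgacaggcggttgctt

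At Chac1, a gene for a glutathione-degrading enzyme, the element began 193 bases before the start and its middle was 15 bp from the CEBPG centre and 80 bp from the ATF4 centre. The Asns promoter, of asparagine synthetase, carried the form TGATGAAA, beginning 23 bases before the start, with its middle 5.0 bp from the CEBPG centre and 30 bp from the ATF4 centre. Pck2, mitochondrial phosphoenolpyruvate carboxykinase, carried the form TTACATCA (opposite strand), with its middle 24.5 bp from the CEBPG centre and 1.0 bp from the ATF4 centre. The promoter of Slc7a11, the cystine transporter, held 2 matches, on opposite strands, beginning 66 and 47 bases before the start. Psat1, phosphoserine aminotransferase, and Arl14ep, an effector of the small GTPase ARL14, had no match in these windows.

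Further promoters with a match are shown as 30-base stretches, to show the element, which they share, beside its flanks, which differ. They were added after their matches were seen. The stretches are chr13:49682126-49682155 (plus strand) for Iars, chr11:75422636-75422665 (minus) for Serpinf1, chr8:94386306-94386335 (plus) for Herpud1, chr7:126625562-126625591 (minus) for Nupr1, chr19:43524689-43524718 (minus) for Got1, chr3:127409105-127409134 (minus) for Ank2 and chr2:152344028-152344057 (minus) for Trib3.
Iars: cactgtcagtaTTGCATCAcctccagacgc
Serpinf1: acaccagacaaTGATGCAAtcacagattcc
Herpud1: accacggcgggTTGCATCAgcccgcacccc
Nupr1: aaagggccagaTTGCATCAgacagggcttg
Got1: cattgcattggTTGCATCAtacaagcctcc
Ank2: agggctcagagTGATGCAActcacaagcgt
Trib3: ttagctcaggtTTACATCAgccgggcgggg

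At 9 of the 19 promoters (47.4%) the match had C at the free position (TGATGCAA), against 24 of 188 (12.8%) with CEBPG alone and 184 of all 21263 windows (0.865%). Among the 74 promoters with CEBPG alone at a score of 100 or more, 14 (18.9%) held this form. At Trib3, a pseudokinase gene induced by ATF4, the element began 15 bases after the start and lay 0.5 bp from the CEBPG centre. The element of Iars, isoleucyl-tRNA synthetase, began 8 bases after the start. Herpud1, a protein of endoplasmic reticulum-associated degradation, had its match 76.5 bp from the CEBPG centre, the farthest of the 12, and 30 bp from the ATF4 centre. At Nupr1, a stress-induced chromatin protein, the match was 37.0 bp from the CEBPG centre and 168 bp from the ATF4 centre.

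Other motifs were searched in the same windows on both strands. The related sequence TGACGCAA, which joins C/EBP-type and CRE-type letters, was in 5 of 19 promoters with a shared gene site (26.3%), in 30 of 188 with CEBPG alone (16%) and in 0.644% of all windows. It shares no match with TGATGNAA, and the Chac1 promoter held both. The C/EBP palindrome TTGCGCAA and the CRE TGACGTCA were each in 0 of 19, where a count of 0 allows up to 16.8% (upper Wilson bound), and in 11 and 9 of the 188 with CEBPG alone. All windows held them at 0.221% and 2.23%. An AP-1 motif (TGANTCA) was in 1 of 19, 20 of 188 and 6.99% of all windows. The CCAAT box (CCAAT) was in 13 of 19 promoters (68.4%, 46.0 to 84.6%), against 45.7% with CEBPG alone and 38.2% of all windows. The GC box (GGGCGG) was in 57.9%, 53.2% and 46.2% of the same sets, the E-box CACGTG in 21.1%, 10.1% and 7.84%, and the antioxidant response element core TGACNNNGC in 26.3%, 12.2% and 13.0%. Intervals of 19 promoters are wide, and for the C/EBP palindrome, the CRE, the AP-1 motif, the GC box and the antioxidant core they include the share of all windows. CEBPG scores differ between the sets as well. Among the 74 promoters with CEBPG alone at a score of 100 or more, the composite element was in 36.5% (26.4 to 47.9%) and TGACGCAA in 23.0%.

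**Figure D1:**
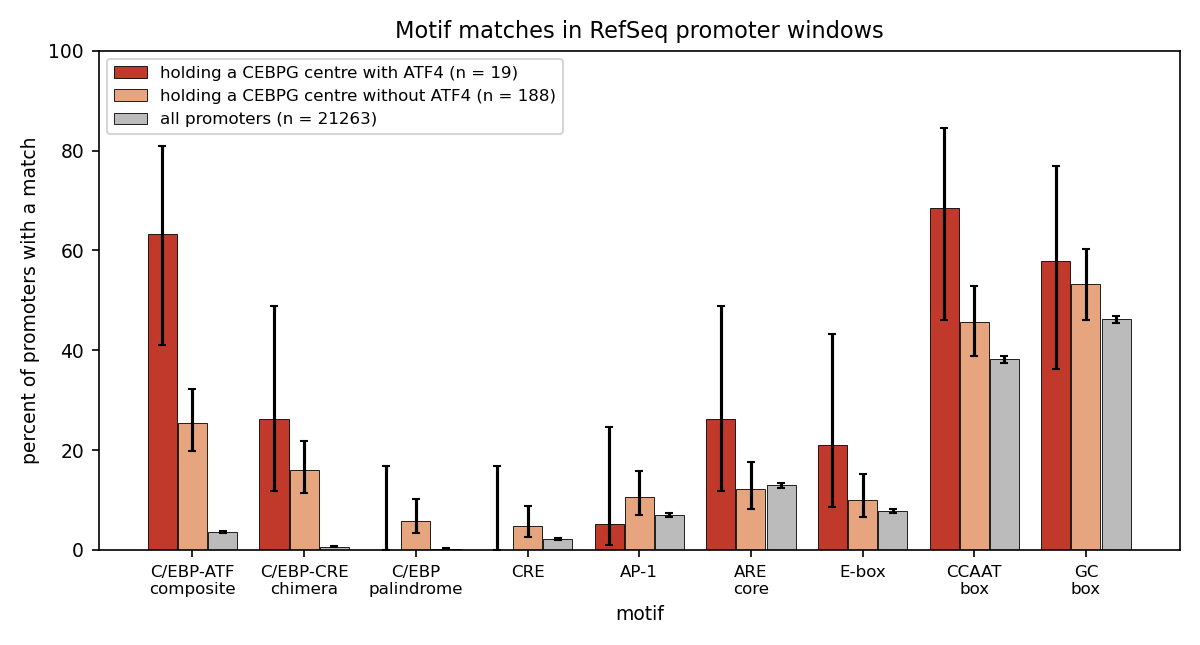
Percent of RefSeq promoter windows (300 bp) with at least 1 match to each motif on either strand, for windows that hold the centre of a CEBPG peak with ATF4, of one without ATF4, and for all windows. Bars start at 0 and lines are 95% Wilson intervals. The composite element is in 63.2%, 25.5% and 3.60% of the 3 sets.

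The peaks themselves were strong in the CEBPG list and spread widely in the ATF4 list. Each score is the authors' own value for a peak and was used to describe and rank peaks within its list. CEBPG scores of shared gene sites ran from 40.5 to 3205.83 with a median of 866.22 and quartiles of 387.5 and 1992.22. All 25419 CEBPG peaks had a median of 47.24, and the 11024 CEBPG peaks at genes without ATF4 had a median of 47.54. The 199 sites were paired with 195 different ATF4 peaks, 7.38% of the 2642 in that list. Their ATF4 scores ran from 40.27 to 841.75 with a median of 67.09, beside a median of 45.88 over all ATF4 peaks. Of these 195 ATF4 peaks, 45 (23.1%) scored under 50 and 58 (29.7%) reached at least 100. The upper quartile over all 2642 ATF4 peaks was 52.46. Because membership required a call in both lists, these contrasts are partly fixed by the choice of sites.

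Of all CEBPG peaks, 1.63% had an ATF4 centre within 250 bp, against 1.77% of those at genes and 1.51% of those away from genes. This share differed widely between score classes of the CEBPG peak. Among CEBPG peaks at genes it was 0.153% (10 of 6532) for scores from 40 to under 50, 6.24% (33 of 529) from 200 to under 500 and 86.2% (50 of 58, 75.1 to 92.8%) from 2000 upwards. Away from genes the highest class held 46 of 52 peaks with ATF4 (88.5%, 77.0 to 94.6%), and the intervals of this class overlap. In the class from 500 to under 1000 the share was 27.2% at genes (21.4 to 33.8%) and 18.8% away from genes (13.7 to 25.4%), with intervals that overlap.

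**Figure D2:**
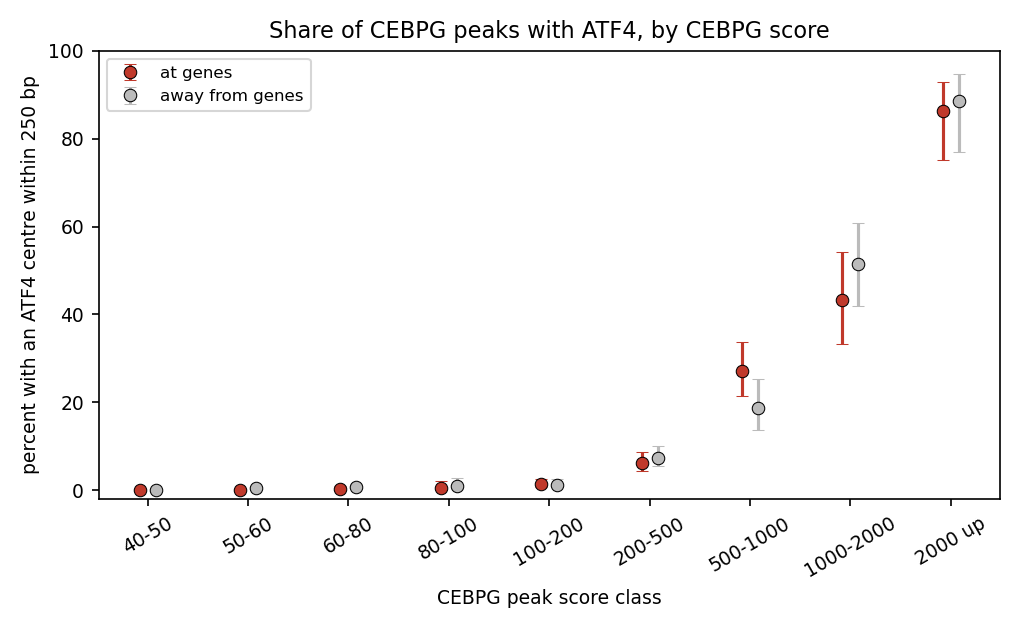
Percent of CEBPG peaks with an ATF4 peak centre within 250 bp (y axis) in 9 classes of the CEBPG score (x axis), at genes and away from genes. Points are shares with 95% Wilson intervals. Both series lie under 10% below a score of 500 and reach 86.2% and 88.5% in the highest class.

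Shared sites at genes resembled the 215 shared sites away from genes in most measures. The median CEBPG score was 866.22 at genes and 775.61 away from them, and the median ATF4 score was 67.09 and 61.44. CEBPG peaks had a median width of 576 bp in both. Centres of the CEBPG and ATF4 peaks lay a median of 45 bp apart at genes and 46 bp away from genes. A CEBPG score of 100 or more was found at 181 of 199 shared gene sites (91.0%, 86.2 to 94.2%) and at 175 of 215 away from genes (81.4%, 75.7 to 86.0%). None of these differences was tested. Genes hold 48.1% of CEBPG peaks with ATF4 (199 of 414, 43.3 to 52.9%) and 44.1% of those without (11024 of 25005, 43.5 to 44.7%).

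Within the 199 pairs the order of the scores was similar in both lists, with a Spearman rho of 0.60 and a Pearson r of 0.56 on log10 scores, given as a description. Score and width were also related (rho of 0.84 for CEBPG and 0.75 for ATF4). A tied score of 3100 was given to 20 of the 199 CEBPG peaks (38 in the whole list), and 1 lay above it. Tied peaks cannot be ordered by score, and whether 3100 is a cap of the scale is not stated. Below the tie rho was 0.50 over 178 pairs. Some sites departed from this order. A CEBPG score of 3100 went with an ATF4 score of 54.29 inside Trat1, a T-cell receptor adaptor gene. The centres of this pair lay 206.5 bp apart, beside a median of 45 bp over the 199 sites. The same CEBPG score went with 78.09 at Hspa9, the mitochondrial Hsp70 chaperone, 293 bp outside the gene span. Nrf1, nuclear respiratory factor 1, had 2395.63 for CEBPG with 43.56 for ATF4, Tbpl1 had 2197.93 with 43.2, and the histone gene H4c14 had 1744.98 with 42.45. In the other direction, the ATF4 score was the larger number, most of all at the weaker Pigl peak (71.37 for ATF4, 42.53 for CEBPG). It was also larger at Sh3glb1 (66.79 and 42.59), Eri1 (57.48 and 44.15), the weaker Slc23a2 peak (60.36 and 50.74) and Gnl3 (48.82 and 42.9). These CEBPG scores are near the lower limit of the list. The ATF4 peaks of Pigl and Slc23a2 were each also paired with a nearer CEBPG peak, of 348.9 and 891.47. The lists have no stated common scale, so these numbers do not compare binding strength. A pair at the lower limit lay inside Lrp1b, an LDL receptor family gene (40.27 for ATF4, 40.5 for CEBPG), the lowest of the 199 in either list. Other ATF4 scores near the limit were at Senp7 (40.63, with 49.8 for CEBPG), Dlc1 (40.65, with 43.64) and Adam18 (40.67, with 222.16).

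**Figure D3:**
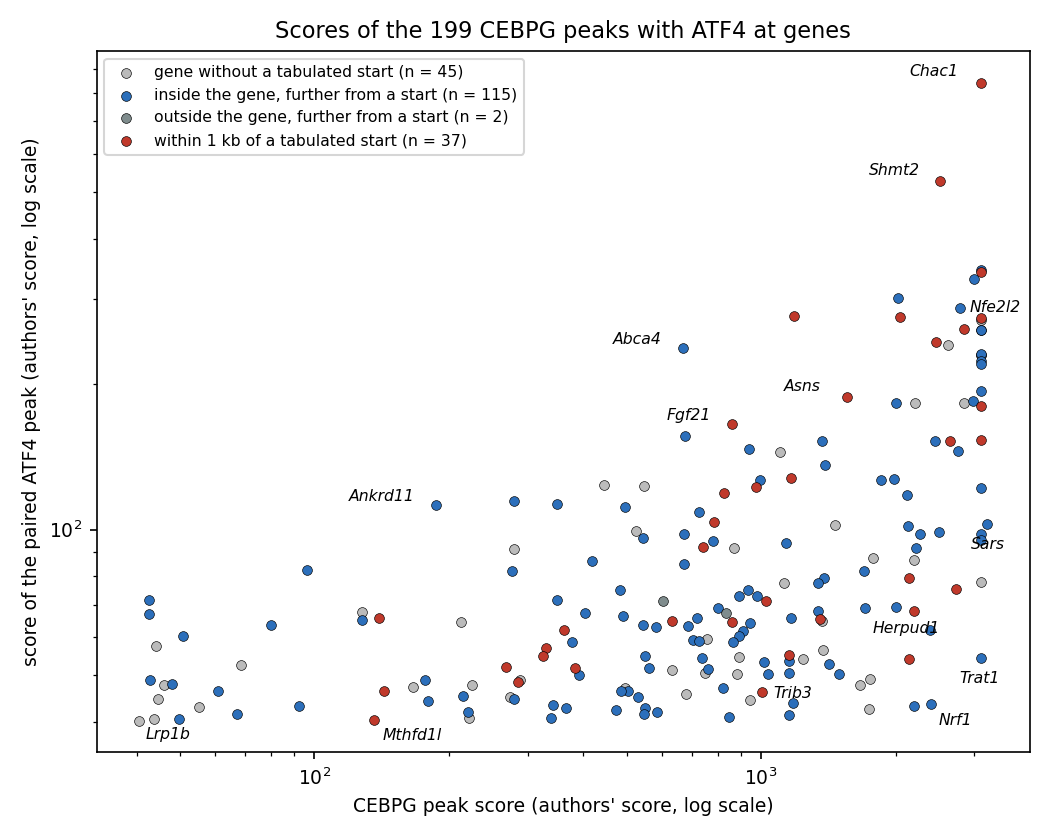
CEBPG peak score (x axis) and score of the paired ATF4 peak (y axis), both on log scales, for the 199 shared gene sites, coloured by position relative to tabulated gene starts. The column of points at 3100 is the tied CEBPG score, and Chac1 (841.75) and Shmt2 (526.4) hold the highest ATF4 scores.

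Position in the gene was the next measure. Gene starts came from the same RefSeq promoter table, which held a start for 153 of the 195 genes with a shared site and for 17492 of all 21887 protein-coding genes. Among the 154 shared gene sites with a tabulated start, 37 (24.0%, 18 to 31.4%) were centred within 1 kb of it, against 669 of 8641 (7.74%, 7.2 to 8.32%) CEBPG peaks at genes without ATF4. Within 250 bp the shares were 13.6% (21 of 154) and 2.68% (232 of 8641). The 37 sites lay a median of 204 bp from the start, and 23 of them were upstream of it. Most sites were elsewhere. The largest class, 115 of 154 (74.7%), lay inside the gene more than 1 kb from any tabulated start, and 2 (Tmc1 and Tbl1x) lay outside the span and beyond 1 kb from a start. The remaining 45 of the 199 were at genes without a start in the table. Measured without starts, 46 of 199 sites (23.1%) and 1054 of 11024 CEBPG peaks without ATF4 (9.56%) were centred within 1 kb of either end of a gene span. Exons and introns were not used here.

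The higher share at starts was seen together with higher scores. Sites near starts had a median CEBPG score of 1151.91 (range 135.97 to 3100) and a median ATF4 score of 79.45 (40.45 to 841.75). Those inside genes had medians of 821.87 and 67.44. At CEBPG scores of 1000 or more, an ATF4 peak accompanied 21 of 25 CEBPG peaks near starts (84.0%, 65.3 to 93.6%) and 47 of 82 inside genes (57.3%, 46.5 to 67.5%). From 500 to under 1000 the shares were 28% (7 of 25) and 26.6% (34 of 128), and from 100 to under 500 they were 5.33% (9 of 169) and 3.07% (23 of 748). Near starts, 0 of 487 CEBPG peaks with a score under 100 had ATF4 (upper Wilson bound 0.783%). The part of the score in the difference of position was not tested.

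**Figure D4:**
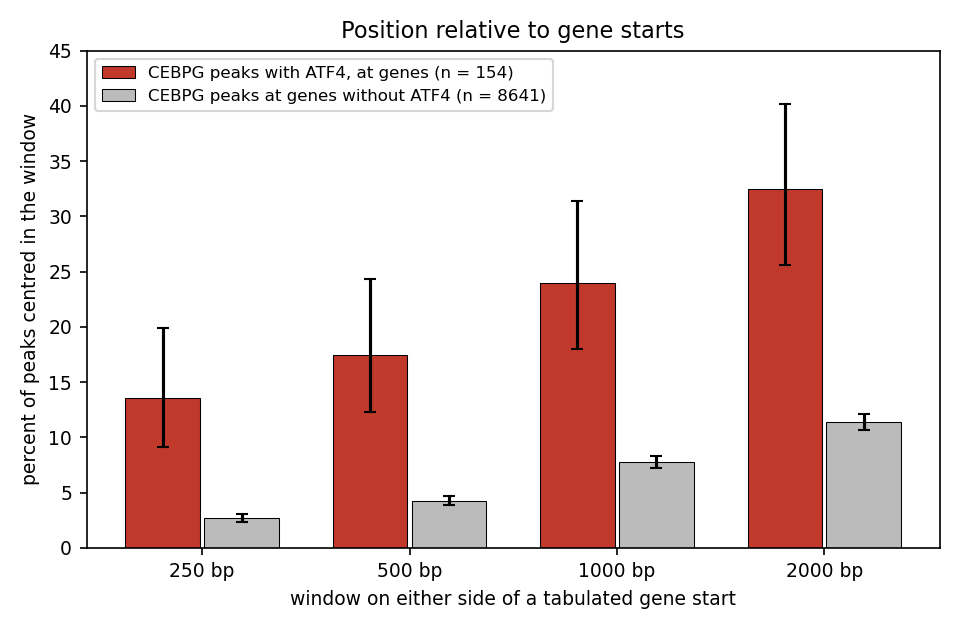
Percent of peaks centred within 250, 500, 1000 and 2000 bp of a tabulated gene start, for CEBPG peaks with ATF4 at genes and for CEBPG peaks at genes without ATF4. Bars start at 0 and lines are 95% Wilson intervals. In the 1000 bp window the shares are 24.0% and 7.74%.

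Genes differed in length between the positions. Those with a site near the start had a median length of 19.5 kb, and those with a site inside had a median of 119 kb. CEBPG peaks without ATF4 at the same positions lay in genes of 23.8 kb and 155 kb. A CEBPG peak without ATF4 was also found at 10 of 41 genes with a site near the start (24.4%), against 77 of 111 genes with an inside site and none near the start (69.4%). Over all protein-coding genes, 25.0% held any CEBPG peak. Inside sites lay a median of 38.9% of the way along the gene from its start side, and CEBPG peaks without ATF4 lay at 48.0%.

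Among genes of amino acid metabolism, shared sites sat mostly at the start. Of all 21887 protein-coding genes, 195 (0.891%) carried a shared gene site and 25.0% carried any CEBPG peak. Among enzymes that make amino acids or serve one-carbon metabolism, 9 of 22 genes did (40.9%, 95% Wilson interval 23.3 to 61.3%), 8 of them within 1 kb of a start. Shmt2, mitochondrial serine hydroxymethyltransferase, had an ATF4 score of 526.4 and a CEBPG score of 2510.62, centred 481 bp downstream of the start. Mthfd2, a mitochondrial folate enzyme, had 244.95 for ATF4 and 2457.77 for CEBPG, 458 bp downstream of a start that lies within its gene span, 8865 bp from the nearer end of the span. Pck2 scored 259.71 and 2842.47, and Asns 188.31 and 1554.72. At Psat1 the values were 180.22 and 3100, 161 bp upstream of the start. Gpt2, a mitochondrial alanine aminotransferase, had 152.73 and 2650.66. Weaker ATF4 peaks marked Got1, cytosolic aspartate aminotransferase (55.08, with 1151.91 for CEBPG), Aldh1l2 (50.27, with 884.51) and Mthfd1l (40.45, with 135.97), the last the weakest site near a start in both lists. The serine pathway enzymes Phgdh and Psph, which act before and after Psat1, carried no shared gene site. A peak in only 1 list would not be counted.

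Amino acid transporters and tRNA synthetases followed. Of 14 transporter genes, 11 held a CEBPG peak and 2 held a shared gene site (14.3%, 4.01 to 39.9%). Over all protein-coding genes the shares were 25.0% and 0.891%. Slc7a11 had an ATF4 score of 153.06 and a CEBPG score of 3100. Its peak was centred 4 bp from a tabulated start that lies within the gene span, 55478 bp from the nearer span end. Slc7a5, the large neutral amino acid transporter LAT1, had 230.21 and 3100, 9198 bp inside a span end. Among 20 cytosolic aminoacyl-tRNA synthetase genes, 15 held a CEBPG peak and 5 a shared gene site (25.0%, 11.2 to 46.9%). These were Yars (ATF4 score 127.88, CEBPG score 1168.96), Iars (122.81, 974.79), Sars (102.68, 3205.83), Aars (75.35, 2724.51) and Gars (51.78, 383.36). The CEBPG score at Sars, seryl-tRNA synthetase, was the highest of the whole CEBPG list, and the peak lay 1057 bp downstream of the start. The Aars site was 127 bp upstream of a start that is inside the span. At Yars the peak also lay within 1 kb of S100pbp, the neighbouring gene, so the site is counted at both.

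Among 22 listed genes of the stress response, 17 held a CEBPG peak and 7 a shared gene site (31.8%, 16.4 to 52.7%), all within 1 kb of a start. Over all protein-coding genes the shares were 25.0% and 0.891%. The list was chosen with knowledge of ATF4 and of these data. Chac1 held the highest ATF4 score of the 199 pairs (841.75, with 3100 for CEBPG), 205 bp upstream of the start. Vldlr, a lipoprotein receptor, had 275.2 and 2042.82, 258 bp upstream of a start. Fgf21, a secreted metabolic hormone, had 165.67 and 858.84 at 996 bp upstream, the farthest of the 37 from a start. Herpud1 (68.02, 2203.73), Nupr1 (65.21, 1355.74), Sesn2 (52.08, 267.95), a leucine-sensing stress protein, and Trib3 (46.24, 1007.02) had lower ATF4 scores. In Trib3 the site was 18 bp from the start. Ddit3, Atf3, Atf4, Cebpb and Cebpg carried no shared gene site. A peak in only 1 list, or under the caller's limit, would not be counted, so this does not show a lack of binding. Ppp1r15b, a constitutive subunit of the eIF2α phosphatase that was in no list, was named for its closeness to its gene span (13 bp outside it). Its scores were 47.73 for ATF4 and 1663.64 for CEBPG.

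Each of the other lists held at most 3 genes with a shared gene site. The share over all protein-coding genes was 0.891%. Of 46 bZIP genes, 3 carried one (6.52%, 2.24 to 17.5%), and in each it lay inside the gene. Nfe2l2, encoding the antioxidant regulator NRF2, had an ATF4 score of 287.71 and a CEBPG score of 2781.52, 18988 bp from the nearest tabulated start. Nfil3, a bZIP repressor, had 220.73 and 3100 at 4126 bp from the start, and Nfe2l1 had 98.96 and 2503.37 at 1125 bp. Among 20 genes of mTORC1 regulation, 3 carried a site: Eif4ebp1, the translation inhibitor 4E-BP1 (183.26, 2846.75), Sesn2 and Rheb, the GTPase that activates mTORC1. Rheb had 2 CEBPG peaks (503.12 and 60.69) around a single ATF4 peak of 46.42. Translation factors added Eif1 (71.34, 1027.63) and Eif3c (54.08, 2141.86), each near its start. With Eif4ebp1 this gave 3 of 21 (14.3%, 4.98 to 34.6%). Endoplasmic reticulum quality control genes had 2 of 17 (11.8%, 3.29 to 34.3%). These were Edem1 (94.8, 779.05) and Sel1l (77.5, 1339.93), which act in disposal of misfolded proteins. Of 16 glutathione and antioxidant genes only Chac1 carried a shared gene site (6.25%, 1.11 to 28.3%). Autophagy (0 of 15), cytosolic ribosomal protein (0 of 20), collagen and matrix (0 of 16) and neuronal genes (0 of 16) had none. Their upper Wilson bounds were 20.4%, 16.1%, 19.4% and 19.4%, all above the share of all protein-coding genes (0.891%). A count of 0 therefore does not set these lists apart from all genes. A CEBPG peak of any kind was at 6, 6, 11 and 8 genes of those 4 lists. In all, 32 of 254 listed genes carried a shared gene site. They accounted for 22 of the 37 sites near starts and for 8 of the 115 sites inside genes. The lists were chosen with knowledge of ATF4 and of these data, so their counts are not independent evidence.

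**Figure D5:**
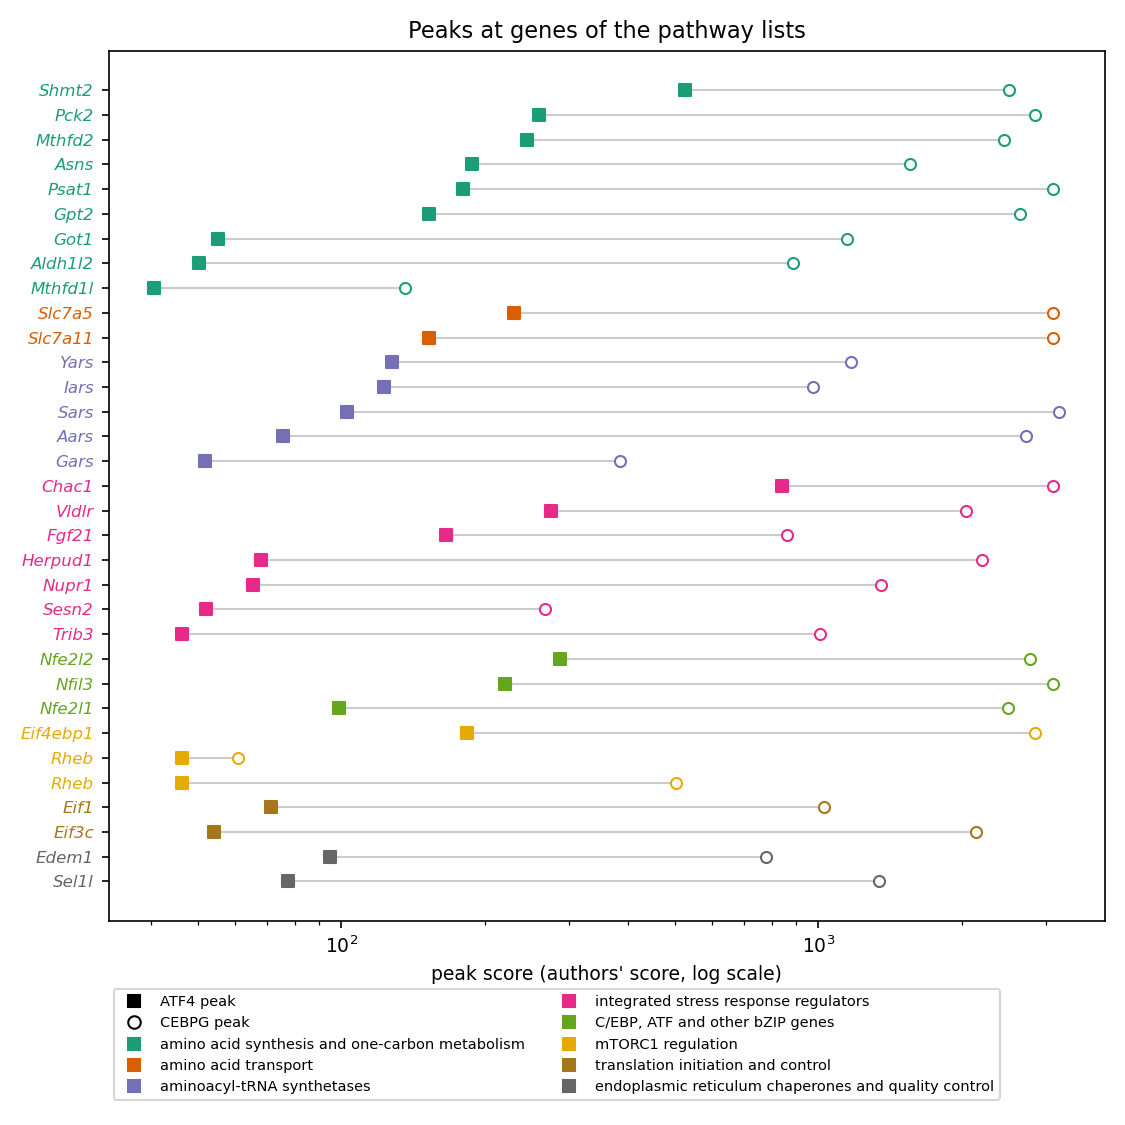
Scores on a log axis of the ATF4 peak (filled squares) and the CEBPG peak (open circles) of each shared gene site at a gene of the pathway lists, coloured by list. A gene in several lists is drawn once. Scores of the 2 antibodies come from separate lists, and the line only joins the pair. ATF4 scores run from 40.45 at Mthfd1l to 841.75 at Chac1.

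The other 15 sites near starts, named here after their values were seen, belonged to genes of varied function. Taf15, an RNA-binding protein, had an ATF4 score of 341.37 and a CEBPG score of 3100, 679 bp upstream of a start. Acot2, a mitochondrial acyl-CoA thioesterase, had 276.88 and 1182.01, 355 bp upstream, and Arl14ep had 274.16 and 3100, 169 bp upstream. Between 79.45 and 118.94 for ATF4 came Btf3l4 with Txndc12, which share a site, Dhrs7, Serpinf1 and Stk40. The lowest 8 were Ptbp1, Krtcap2 with Trim46, Knl1, Taco1, Marchf6, Ank2, Ogfod1 with Nudt21, and Rchy1, with ATF4 scores from 46.29 to 65.51. Ogfod1 and Nudt21 flank a peak (48.41, 285.02) centred 3 bp from a span end.

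Inside genes, the 3 highest ATF4 scores were at sites more than 2 kb from a tabulated start. Ubr2, a ubiquitin ligase of the N-degron pathway, had an ATF4 score of 344.75 and a CEBPG score of 3100, 15454 bp from the nearest start. Tsc22d3, which encodes the glucocorticoid-induced leucine zipper protein, had 330.26 and 3001.61, 2335 bp upstream of one start but inside the gene span. Cpne8, a copine, had 300.95 and 2024.94 at 69197 bp. Scores of 3100 for CEBPG were also found inside Slc24a2 (258.68 for ATF4), Frmd4a (258.48), Ptrh2 (230.47), Atrnl1 (223.82) and Mcu, the mitochondrial calcium uniporter (193.69). Auts2 (271.75) and Rbm20 (229.83) had the same CEBPG score at genes without a tabulated start. Their distances to the nearer span end were 439316 bp and 71144 bp.

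Repeats within a gene were few. Of the 195 genes, 9 held 2 shared gene sites. At Pigl, Slc23a2, Nfib and Rheb both CEBPG peaks were paired with the same ATF4 peak, 258 to 296 bp from each other, so these count as a single ATF4 site each. Separate pairs lay 4522 bp from each other in Cdyl, 34.7 kb in Prdm6, 136 kb in Tbl1x, 259 kb in Sgcz and 386 kb in Slit3. At 5 sites the peak was assigned to 2 neighbouring genes. The sites were on 20 chromosomes, from 3 on the X to 18 on chromosome 11.

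Sites at the limits of the rule were as follows. The largest accepted centre distances were 230 bp at Sel1l, 225 bp at Rbm6 and 216.5 bp at the weaker Rheb peak. Just beyond lay CEBPG peaks at Sgcz (287.5 bp), Csmd3 (289.5 bp) and Kdm6b (307.5 bp), with CEBPG scores of 41.26, 44.69 and 56.41. For distance outside a gene the last accepted were Fgf21 (996 bp), Stk40 (662 bp) and Taf15 (644 bp). The first left out were at Slc20a1 (1050 bp, CEBPG 64.29, ATF4 43.88), Fam229b (1163 bp, 775.61, 54.43) and Sqstm1 (1245 bp, 676.73, 90.93).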

How the data were processed

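Per the submitters' processing notes, the build was mm10 and the tools included MACS 1.4.2, Trimmomatic, HOMER and BWA; their settings are not stated. Single-end reads of 36 bp were sequenced with 1 sample per lane, per the labels' protocols. Each deposited list gives peak positions and a peak name that ends in the authors' score, here taken as the score of the peak. The deposited scores begin at 40 and have no stated scale. The sources used here do not say whether a background library was used, and no depth is known. Other values of the deposited files are positions in bp, which were read as BED intervals and are printed 1-based.

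Nearest centres, gene spans (21887 protein-coding genes of RefSeq GRCm38.p6, nuclear chromosomes) and starts were joined in Python 3.11.15 with pandas 2.3.3, numpy 2.4.6 and scipy 1.17.1, and figures were drawn with matplotlib 3.10.9. Gene starts and sequences came from the RefSeq promoter table (GRCm38.p6), which covers 17492 of these genes. The planned windows around peak centres were not run because no genome was used here, so motifs were read in promoters. No p-values were computed. The functions for pairing and for gene distance were checked on simulated data. The members, the 13 gene lists and the motifs were chosen with earlier results of these data known. Named sites were the 15 highest by either score, all at list genes, genes with 2 sites and the 5 closest to a start or span end. Also named were the 5 highest and lowest score ratios, the 5 lowest scores and those at the limits. Alternatives changed the centre distance, the gene distance, the score minimum, the peak width, the start window and the motif. The sequence of 1 promoter with a match is not reported here.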

Additional observations from a re-analysis of the deposited data

How the results depend on the processing

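Over 7 results, 46 of 59 alternative values stayed within the 95% interval of the reported value (counting error; for medians, from order statistics), or for the number of sites within 1.5 times of it. The number of sites ranged from 149 to 234 under these settings but was 58 at scores of at least 100 in both lists. A minimum score changes scores by its construction. At scores of at least 50 the median CEBPG score was 1101.97, the median ATF4 score 85.45 and the share of CEBPG peaks at genes with ATF4 3.18%. At scores of at least 100 they were 2172.99, 172.94 and 3.76%. There, 35.4% of sites with a tabulated start were near it, against 17.6% of CEBPG peaks without an ATF4 peak of that score. In both settings, CEBPG peaks whose ATF4 peak fell under the minimum counted as without ATF4. With centres within 100 bp the share of CEBPG peaks with ATF4 was 1.46%. The share of sites near a start was 17.5% with a window of 500 bp and 32.5% with 2 kb, against 4.26% and 11.4% for CEBPG peaks without ATF4. With the gene span alone, which leaves out upstream sites, it was 12.9% against 4.80%. Spearman's rho was 0.50 without pairs at or above the tied CEBPG score. The composite element was in 58.3% of 24 promoters that overlapped a site by at least 1 bp, an alternative added after seeing the data. No paired analysis was possible because each antibody has 1 library. Depth is unknown, so sites that are in only 1 list may have missed the caller's limit in the other.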

Other observations

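Some listed genes had a pair of CEBPG and ATF4 peaks just too far from the gene to be counted above, within 5 kb of the span. Hspa5, the chaperone BiP, had a pair 1829 bp away (ATF4 score 87.43, CEBPG score 3100), and Ddit4, an mTORC1 inhibitor, had one at 1276 bp (199.36, 1838.78). The pair 2455 bp from Atf5, a bZIP gene (145.38, 2765.18), is the site counted at Il4i1b and Nup62. Sqstm1, an autophagy receptor gene, and Col1a2, a collagen gene, had pairs at 1245 bp (90.93, 676.73) and 4603 bp (50.52, 43.05).

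Long genes with a shared site held many further CEBPG peaks. Pde4d (1302 kb) and Sgcz (1144 kb) each had 26 CEBPG peaks without ATF4, and Csmd3 (1212 kb) and Lrp1b (2058 kb) each had 23. These 4 genes were named after their values were seen. Of the 195 genes with a shared site, 115 (59.0%) also held a CEBPG peak without ATF4, and 25.0% of all protein-coding genes held any CEBPG peak.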
